A study of Bos taurus with 20 samples.

Results

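The mitosis and spindle genes described here are 42 genes of the cell division machinery, picked by symbol from the 33063 named genes of the count table. They were measured by RNA sequencing in 10 adipogenic (A) and 10 non-adipogenic (N) clones of bovine mesenchymal stem/stromal cells (MSC), and each clone gave 1 library. A clone is the population grown from 1 sorted cell of visceral fat from Holstein Friesian x Aberdeen Angus calves. It was grown in medium with serum and bFGF and, after sorting, part conditioned medium from cells of the same animal. By the paper's account the cells for RNA were set aside when the culture had reached confluence and was split. This was before any adipogenic induction of these cells. The A clones were those with the highest differentiation in parallel cultures and the N clones were scored as not differentiating, so the genotype entry in the labels names a capacity and not an engineered change. Animals 17 and 20 gave 1 A and 1 N clone each, and animals 22 and 23 gave 4 A and 4 N clones each. Clones are named below by animal and clone number, so that 22-9 is clone 9 of animal 22, and clones of 1 animal share its genome and culture.

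Cells enter mitosis when CDK1, bound to cyclins A and B, reaches full activity, after which a spindle of microtubules is built, pulls sister chromosomes apart and is taken down as the cell is cut into 2. Most of these genes are transcribed in a burst before division under the control of FOXM1 and related factors, and their proteins are destroyed as cells leave mitosis. In a growing culture their transcripts are therefore used as a measure of how much of the population is dividing. In bulk RNA such as this, fewer dividing cells and less RNA per dividing cell cannot be told apart.

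Total counts ranged from 14615493 to 29185355 over the A clones (median 16112862) and from 14908802 to 43111345 over the N clones (median 16316703.5). The 42 genes together took between 0.0201% and 0.17% of the counts in A clones (median 0.0654%) and between 0.0686% and 0.232% in N clones (median 0.127%). The summed level of 8 MSC markers was 27000 to 47400 CPM (counts scaled to a common library size) in A clones and 21700 to 40300 CPM in N clones, with none of the 8 called in the test described below, also not at an unadjusted p under 0.05, though THY1 fell to 0.395 CPM in 1 N clone. Some markers of other cells differed between the groups. The summed level of 7 leukocyte and macrophage genes was 2.82 to 12.6 CPM in A clones and 0.885 to 10.9 CPM in N clones. The 1 of them tested, CD68, was higher in A clones by 1.06 on the log2 scale (edgeR's quasi-likelihood test, adjusted p = 0.0157), while PTPRC did not exceed 7 counts. Of 7 smooth muscle and pericyte genes, at 4060 to 11300 CPM in A and 1080 to 9970 CPM in N clones, 6 were tested. Of these, 1 was called, MYH11, higher in A clones by 3.04 (adjusted p = 0.0484). Of 7 adipocyte genes, at 16.9 to 96.7 CPM and 4.69 to 122 CPM, 4 were tested and 1 was called, PLIN1, higher by 0.53 (adjusted p = 0.0456). LPL and FABP4, at 1.93 and 0.94, were not called (adjusted p = 0.115 and 0.357). CIDEC, also not called, went the other way, at -0.64 (adjusted p = 0.129). Of 6 endothelial genes, at 5.12 to 23.7 CPM and 1.07 to 41.3 CPM, none of the 3 tested was called (1, PECAM1, was at an unadjusted p under 0.05), and CLDN5 was at 0 in every clone. The part of these markers in the results below was not tested. N clones 22-5 and 22-9 stood apart. Their summed level of 6 mesothelial genes was 8500 and 5870 CPM, against 7.27 to 976 CPM in the other 18 clones, and clone 22-5 held only 0.508 CPM of the MSC marker NT5E, which encodes CD73. They were also the clones with the highest mean level of the mitosis and spindle genes, and the counts over the 42 genes and over each list of related genes are therefore given with and without them.

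All 42 genes had a lower fitted level in A than in N clones, as did 51.2% of all genes tested. The fit was edgeR's quasi-likelihood test on all genes that passed its filter on low counts, with the animal as a block and Benjamini-Hochberg adjustment over the 12900 genes tested. All 42 genes passed the filter. Of them, 27 fell in A clones at an adjusted p under 0.05, 20 of these by at least 2-fold, and 0 rose. Over all genes tested, 10.3% were called lower in A clones, 1.81% were called lower by at least 2-fold and 10.3% were called higher. The median log2 fold change was -1.17 over the 42 genes and -0.01 over all genes tested. At an unadjusted p under 0.05, 36 of the 42 were lower. No share over all genes tested is given for this count or the unadjusted counts below, so they have no background.

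The calls lay close to the threshold, and the number of genes called moved with single clones while the direction did not. Left out in turn, the 20 clones gave between 9 and 38 genes called lower, with all 42 fold changes negative and 0 genes called higher in every fit. Over all genes tested, the share called lower in these fits ran from 7.21% without 22-9 to 11.9% without 22-18. The number of the 42 genes called was 9 without N clone 22-9, 10 without N clone 23-74, 13 without clone 17-23, 22-5, 17-57 or 23-14, and 14 without 20-15, 20-106, 22-11 or 22-16. It was 16 without A clone 23-68 and 17 without 22-27 or 23-108, and it reached 38 without A clone 23-62. Without both 22-5 and 22-9, a choice made after seeing the data, 2 of the 42 genes were called, CDK1 and AURKB. As 5.91% of all genes tested were called lower in that fit, 2 of 42 is not above the background. The median log2 fold change over the 42 genes was -0.95 there. Among the 20 fits that each left out 1 clone, 9 genes were called in all: MKI67, TOP2A, CDK1, BUB1B, AURKB, CDCA8, CENPE, KIF11 and KIF23. At the other end, UBE2C, ANLN, RACGAP1 and MAD2L1 were called in none of them. Of the 27 genes called with all clones, 12 were called in fewer than 11 of the 20 fits, and these fits are counted below beside the genes concerned.

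**Figure D1:**
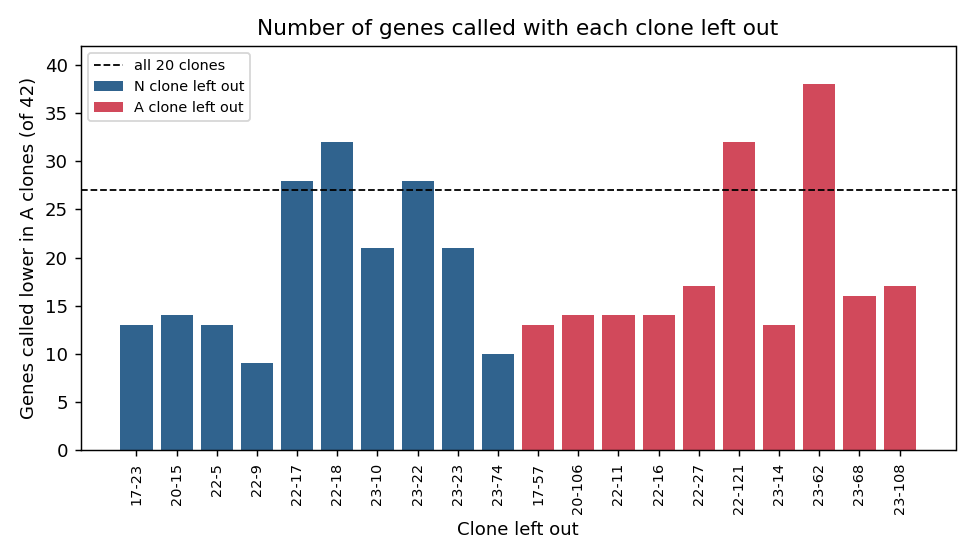
Number of the 42 genes called lower in A clones (y axis, adjusted p under 0.05 in edgeR's quasi-likelihood test) when the clone named on the x axis was left out, with N clones in blue and A clones in red. The dashed line marks the 27 genes called with all 20 clones, and the bars run from 9 without clone 22-9 to 38 without clone 23-62.

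The levels below are CPM scaled by TMM factors, given as the lowest, median and highest of the 10 clones of a group. They are not divided by transcript length, so they compare clones for 1 gene and not genes with each other. Fold changes are log2 of A against N clones with their standard error (SE), and adjusted p-values are those of the quasi-likelihood test just described.

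The 2 proliferation marks both fell. MKI67 encodes Ki-67, which coats mitotic chromosomes and is the usual stain for cycling cells. It was at 25.1, 87.6 and 203 CPM in N clones and at 1.03, 33.8 and 98.2 CPM in A clones. The groups overlapped, with 4 A clones under the whole N range and 4 N clones over the whole A range. The log2 fold change of -1.77 (SE 0.516, adjusted p = 0.0242) was the largest in size of the 42. TOP2A, the topoisomerase that untangles sister chromosomes, was at 21.1, 43.2 and 92.3 CPM in N clones and at 3.43, 17.2 and 53.1 CPM in A clones. In 7 of the 10 A clones it was under the whole N range (log2 fold change -1.42, SE 0.41, adjusted p = 0.0237).

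CDK1, the kinase that drives entry into mitosis, had the smallest adjusted p of the 42 genes. It was at 13.9, 41.4 and 72.8 CPM in N clones and at 2.75, 17.7 and 35 CPM in A clones. The N clone at 13.9 CPM was 22-18, and 7 N clones were over the whole A range. CDK1 fell with a log2 fold change of -1.37 (SE 0.307, adjusted p = 0.00692), in the same direction in all 4 animals. Its cyclin partners had fold changes of similar size and larger relative errors. CCNB2 fell from a median of 9.93 CPM (5.5 to 22.8) in N clones to 4.53 CPM (1.52 to 13.1) in A clones (log2 fold change -1.19, SE 0.356, adjusted p = 0.0276). CCNA2, cyclin A2, fell by 1.33 on the log2 scale (SE 0.405, adjusted p = 0.0297). CCNB1, cyclin B1, was at 11.2, 24.5 and 50.8 CPM in N clones and at 0.833, 11.3 and 37.9 CPM in A clones. Cyclin B1, at -1.23 (SE 0.444), missed the threshold at an adjusted p of 0.0581, which ranged from 0.0147 to 0.408 over its 36 alternatives.

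FOXM1, the transcription factor that activates many of the other genes, was at 1.35, 5.19 and 13.7 CPM in N clones and at 0, 1.73 and 6.5 CPM in A clones. FOXM1 lay just outside the threshold (log2 fold change -1.6, SE 0.563, adjusted p = 0.0526), and TPX2 just inside it, at 0.0477. Over the 35 alternatives in which FOXM1 was tested its adjusted p ranged from 0.0097 to 0.401. A count of 0 in clone 20-106 allows up to 3 counts, or 0.147 CPM, of FOXM1 there, counting error only.

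**Figure D2:**
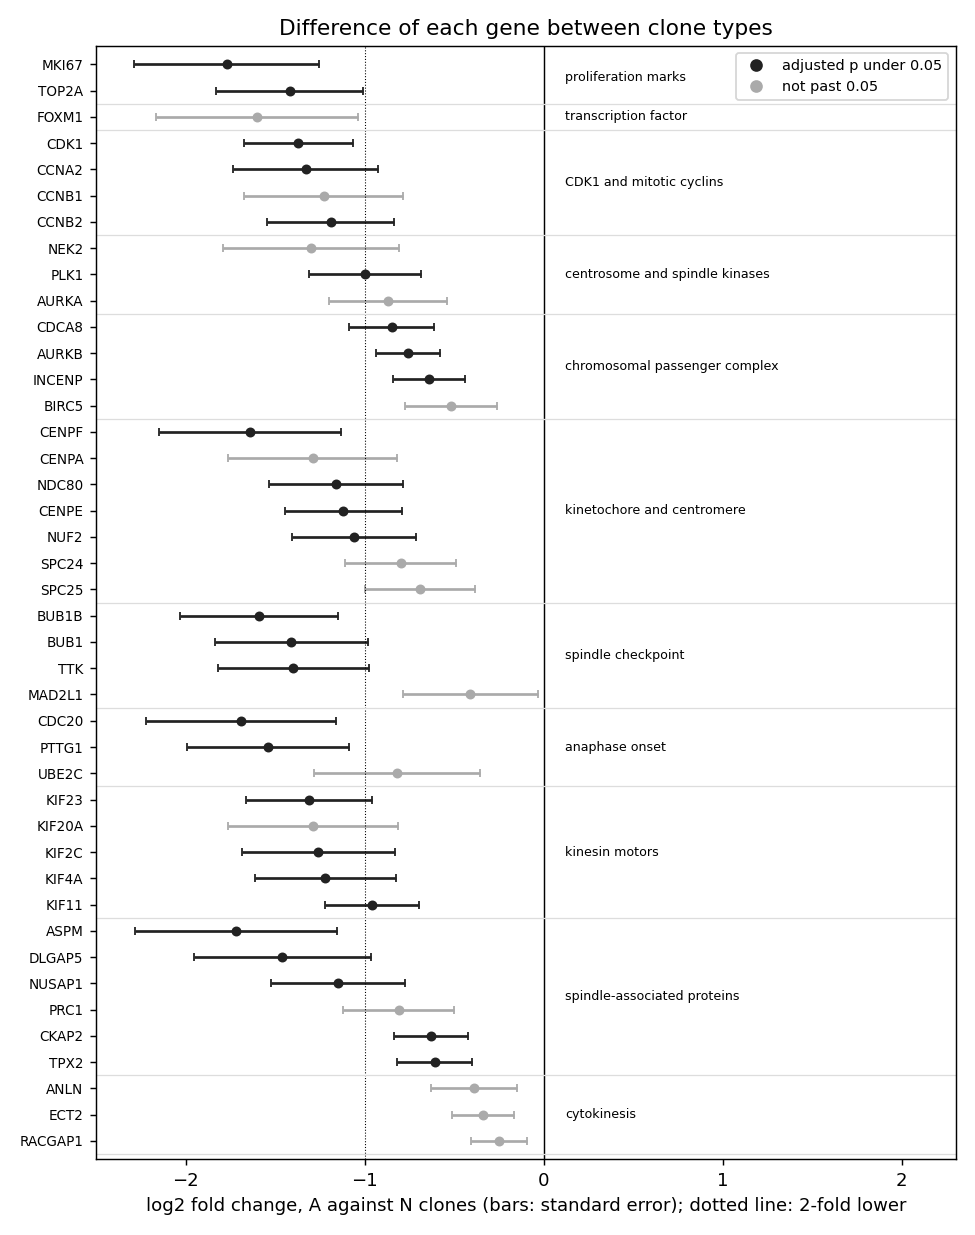
Fitted log2 fold change of each of the 42 genes, A against N clones (x axis), grouped by role, with bars of 1 standard error and black points for an adjusted p under 0.05. All points lie left of 0, from -1.77 for MKI67 to -0.25 for RACGAP1, and the 3 cytokinesis genes are grey.

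Of the centrosome and spindle kinases, PLK1 was called lower in A clones. It promotes centrosome maturation and mitotic entry, and was at 6.47, 17.1 and 37.7 CPM in N clones and at 4.02, 9.49 and 20.3 CPM in A clones. The fit gave PLK1 a log2 fold change of -1 (SE 0.313, adjusted p = 0.0333), and 8 of the 20 fits without 1 clone called it. AURKA and NEK2, kinases of the centrosome, had log2 fold changes of -0.87 and -1.3 with adjusted p-values of 0.0697 and 0.0689.

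The chromosomal passenger complex corrects faulty attachments of chromosomes to the spindle and later marks the site of division. In it 3 of 4 genes fell, by less than 2-fold each. AURKB, its kinase, was at 7.99, 13.1 and 20.7 CPM in N clones and at 3.87, 8.01 and 12.4 CPM in A clones. Of the N clones 6 were over the whole A range, and 5 A clones under the whole N range (log2 fold change -0.76, SE 0.178, adjusted p = 0.00874). CDCA8, which encodes borealin, was at 7.26, 11.7 and 21.3 CPM in N clones and at 3.19, 7.21 and 15.8 CPM in A clones (log2 fold change -0.85, SE 0.238, adjusted p = 0.0201). INCENP, the scaffold of the complex, had a log2 fold change of -0.64 (SE 0.202, adjusted p = 0.0346) and was called in 9 of the 20 fits without 1 clone. BIRC5, which encodes survivin, was not called, at -0.52 (SE 0.257, adjusted p = 0.152), and A clone 23-62 was over the whole N range for it.

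At the kinetochore, the plate on each chromosome to which microtubules attach, 4 of 7 genes fell. CENPE, a motor that carries chromosomes to the spindle equator, was at 26.3, 37 and 68.8 CPM in N clones and at 4.8, 14.9 and 56.8 CPM in A clones. Of the A clones, 7 were under the whole N range (log2 fold change -1.12, SE 0.326, adjusted p = 0.0239). CENPF reached the largest drop of this group, at -1.64 (SE 0.508, adjusted p = 0.0315). The NDC80 complex holds the microtubule end, and its 4 subunits divided at the threshold. NDC80 and NUF2 fell by 1.16 and 1.06 on the log2 scale (adjusted p = 0.0363 and 0.0393) and were called in 6 and 7 of the 20 fits without 1 clone, while SPC24 and SPC25 were at -0.8 and -0.69 (adjusted p = 0.0768 and 0.116). A difference between the subunits was not tested. For NUF2, 8 A clones were under the whole N range, the most of any of the 42 genes. CENPA, the histone of the centromere, was at -1.29 (adjusted p = 0.0611).

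The spindle checkpoint delays separation until every chromosome is attached, and 3 of its 4 genes fell. BUB1B, which encodes BUBR1, was at 6.87, 24.2 and 44.4 CPM in N clones and at 0.931, 7.13 and 22.1 CPM in A clones. Both groups spread widely, but 6 N clones were over the whole A range and 5 A clones under the whole N range (log2 fold change -1.59, SE 0.441, adjusted p = 0.0195). BUB1 fell from a median of 14.7 CPM (5.88 to 35.7) to 6.29 CPM (1.03 to 20.2), at -1.41 on the log2 scale (SE 0.426, adjusted p = 0.0285). The kinase TTK, also called MPS1, fell from 9.31 CPM (2.44 to 16.2) to 3.36 CPM (0.735 to 10.5), at -1.4 (SE 0.422, adjusted p = 0.0285). MAD2L1, which encodes the checkpoint's diffusible inhibitor MAD2, had the largest adjusted p of the 42 genes. It was at 5.47, 10.8 and 20 CPM in N clones and at 1.96, 7.61 and 20.2 CPM in A clones (log2 fold change -0.41, SE 0.376, adjusted p = 0.456). A clones were higher by 0.63 on the log2 scale in animal 22 and lower in the other 3 animals.

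Among the genes of anaphase onset, CDC20 and PTTG1 fell and UBE2C was not called. CDC20 activates the anaphase-promoting complex (APC/C), the ubiquitin ligase that starts chromosome separation. It was at 5.29, 19.4 and 45.6 CPM in N clones and at 0.49, 6.47 and 24.4 CPM in A clones. CDC20 had a fitted log2 fold change of -1.69 (SE 0.532, adjusted p = 0.0338), and 8 of the 20 fits without 1 clone called it. PTTG1 encodes securin, the inhibitor of separase, and went from 7.55 CPM (1.96 to 15.4) in N clones to 3 CPM (0.196 to 6.76) in A clones (log2 fold change -1.54, SE 0.455, adjusted p = 0.0258). UBE2C, the ubiquitin-conjugating enzyme of the APC/C, was at -0.82 (SE 0.465, adjusted p = 0.21).

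Of the 5 kinesins, motors that move along or shorten microtubules, 4 fell. KIF11, which pushes the spindle poles apart, was at 16.7, 27.5 and 49.1 CPM in N clones and at 7.55, 14.1 and 32.5 CPM in A clones, with 7 A clones under the whole N range (log2 fold change -0.96, SE 0.264, adjusted p = 0.0187). KIF23, a motor of the central spindle, was at 8.07, 21.7 and 41.1 CPM in N clones and at 1.62, 9.71 and 19.6 CPM in A clones (log2 fold change -1.31, SE 0.353, adjusted p = 0.0172). KIF2C and KIF4A fell by 1.26 and 1.22 on the log2 scale (adjusted p = 0.0463 and 0.0379), and were called in 5 and 8 of those 20 fits. KIF20A was at -1.29 (adjusted p = 0.0616).

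Of the 6 spindle-associated proteins, 5 fell, each of which lost its call in most of the 20 fits without 1 clone. ASPM was called in 8 of these fits, NUSAP1 and TPX2 in 6 each, and CKAP2 and DLGAP5 in 5 each. ASPM, which focuses the spindle poles, and DLGAP5, which stabilises spindle fibres, had log2 fold changes of -1.72 and -1.46 (adjusted p = 0.0399 and 0.045). NUSAP1, a bundler of microtubules, was at -1.15 (adjusted p = 0.0381). CKAP2 and TPX2, a microtubule-associated protein and the activator of AURKA, had smaller changes of -0.63 and -0.61 (adjusted p = 0.0405 and 0.0477). PRC1, which crosslinks microtubules of the central spindle, was not called, at -0.81 (adjusted p = 0.073).

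The 3 genes given the role of cytokinesis here were the least different group, with 0 of 3 called in the quasi-likelihood test, with DESeq2's test or at an unadjusted p under 0.05. ANLN, the scaffold of the contractile ring, was at 150, 194 and 283 CPM in N clones and at 36.7, 165 and 316 CPM in A clones (log2 fold change -0.39, SE 0.242, adjusted p = 0.249). RACGAP1, which acts at the central spindle, was at 48, 72.3 and 82.9 CPM in N clones and at 25.1, 63.7 and 87.7 CPM in A clones (log2 fold change -0.25, SE 0.156, adjusted p = 0.263). The medians of the groups differed by less than the range of either group for both, as they also did for CDK1 and MKI67. ECT2, the exchange factor that activates the small GTPase RhoA at the division plane, was at -0.34 (SE 0.172, adjusted p = 0.158). The contrast depends on how roles were assigned. KIF23 and PRC1, also of the central spindle, were placed in other groups, at -1.31 and -0.81 (adjusted p = 0.0172 and 0.073). Of the 7 other cytokinesis genes described below, 3 were called lower. Whether ANLN, RACGAP1 and ECT2 differ from the other 39 in their response was not tested.

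The genes varied together from clone to clone. In a principal component analysis of the 42 genes over the 20 clones, the first component held 93.4% of the variance of log2 CPM, against 25.3% for all 12900 genes. After the means of animal and condition were removed it still held 91.7%, against 23.1%, and without clone 20-106 it held 89.8%, against 25.5%. These shares are descriptions: the genes were picked as parts of 1 process, and all values of a clone come from 1 library. Within groups the median SD of log2 CPM was 1.06 in A clones and 0.71 in N clones, where all genes tested gave 0.336 and 0.376. Without clone 20-106 the SD in A clones was 0.779.

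**Figure D3:**
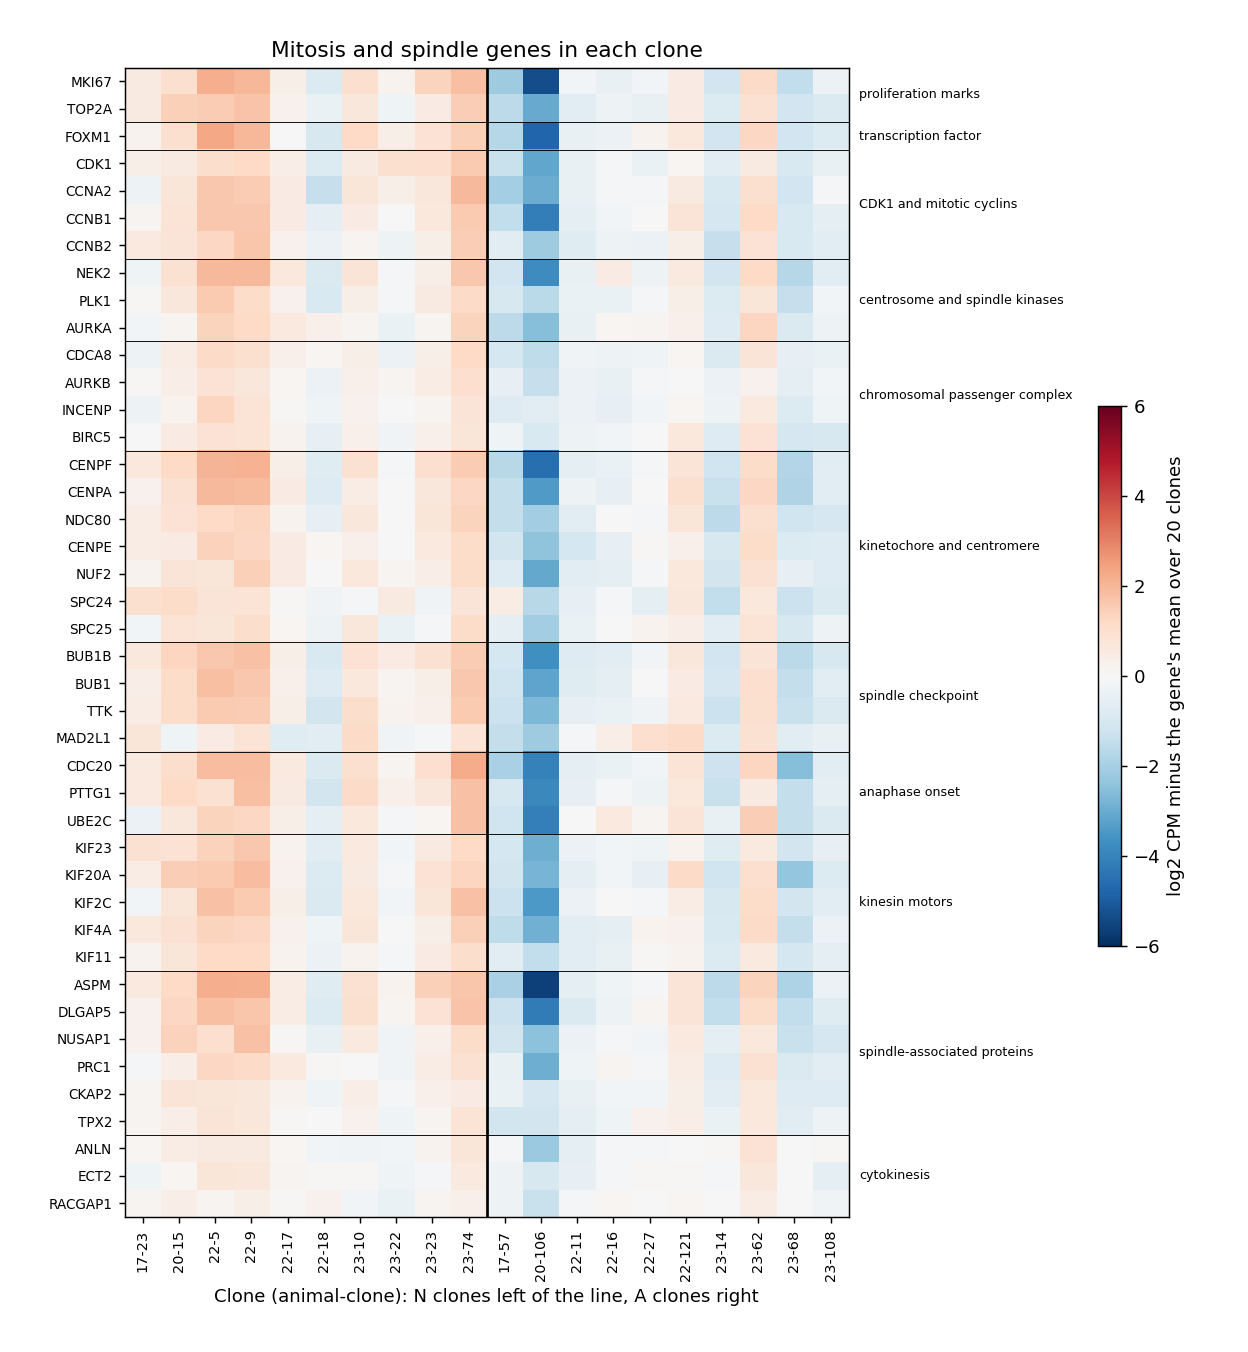
Level of each of the 42 genes (rows, grouped by role) in each of the 20 clones (columns, N clones left and A clones right of the black line), as log2 CPM minus the gene's mean. Clone 20-106 is the lowest column for 40 of the genes, clones 22-5, 22-9 and 23-74 are red in nearly all rows, and clone 23-62 is the reddest of the A clones.

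The mean of log2 CPM over the 42 genes gave the order of the clones. N clones had a lowest mean of 3.36, a median of 4.39 and a highest of 5.22, and A clones 1.1, 3.34 and 4.77. The highest 3 were the N clones 22-9, 22-5 and 23-74, at 5.22, 5.19 and 5.14. A clone 23-62 came next, at 4.77, and was the highest A clone for 38 of the 42 genes. N clone 22-18, at 3.36, lay below 5 of the 10 A clones and was the lowest N clone for 30 genes. It also had the most counts of any library, so its low levels rest on 29556 counts over these genes. A clone 20-106, at 1.1, was the lowest of all clones for 40 genes and below every N clone for all 42. Its median difference from the middle of the other A clones was -2.29 on the log2 scale, from -0.35 to -5.25 by gene. It held 4649 counts on the 42 genes, and 1 gene, FOXM1, had 3 counts or fewer there.

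**Figure D4:**
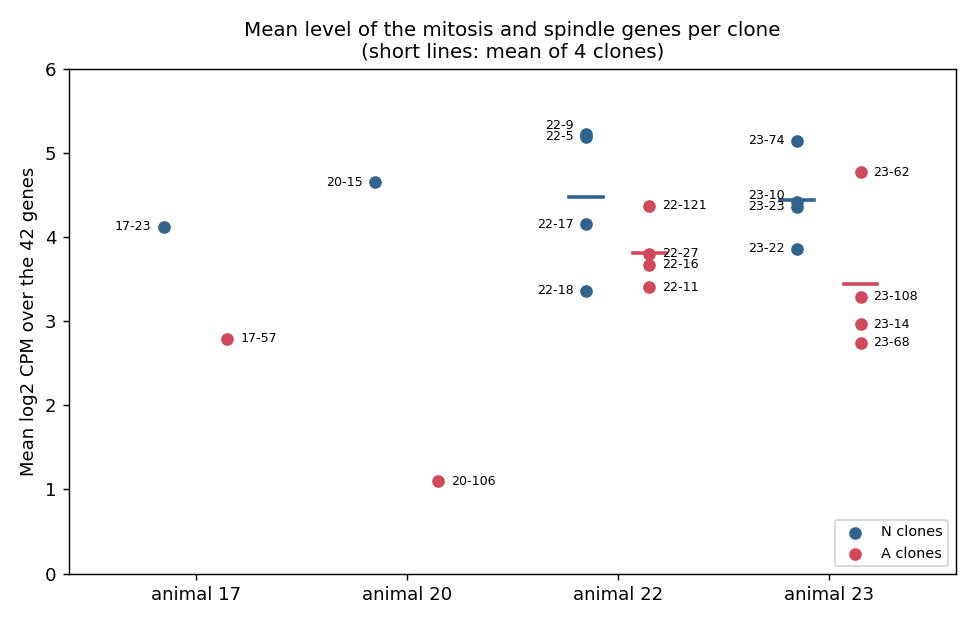
Mean log2 CPM over the 42 genes (y axis) in each clone, by animal (x axis), with N clones in blue, A clones in red and short lines for the mean of the 4 clones of a type in animals 22 and 23. Clone 20-106 at 1.1 lies far below the others, N clone 22-18 lies below the 4 A clones of its animal, and A clone 23-62 lies among the N clones of its animal.

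No gene separated the groups fully. For 0 of the 42 genes did every A clone lie below every N clone, and over all genes tested 0.093% did. In direction the animals were alike. The mean of the A clones was lower for 42 of 42 genes in animals 17 and 20, for 41 in animal 22 and for 40 in animal 23, and 39 genes were lower in all 4 animals, as were 17.4% of all genes tested. The exceptions were MAD2L1 in animal 22, and ANLN and RACGAP1 in animal 23, where the differences were 0.11 and 0.09 on the log2 scale. On the log2 scale the median of A minus N over the 42 genes was -1.47 for the pair of animal 17 and -3.75 for the pair of animal 20. It was -0.73 for the 8 clones of animal 22 and -0.99 for the 8 of animal 23, and between -0.03 and 0 over all genes tested in each animal. Animal 20 is a single pair of clones, 20-106 against 20-15, and its value cannot be told apart from that of clone 20-106.

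**Figure D5:**
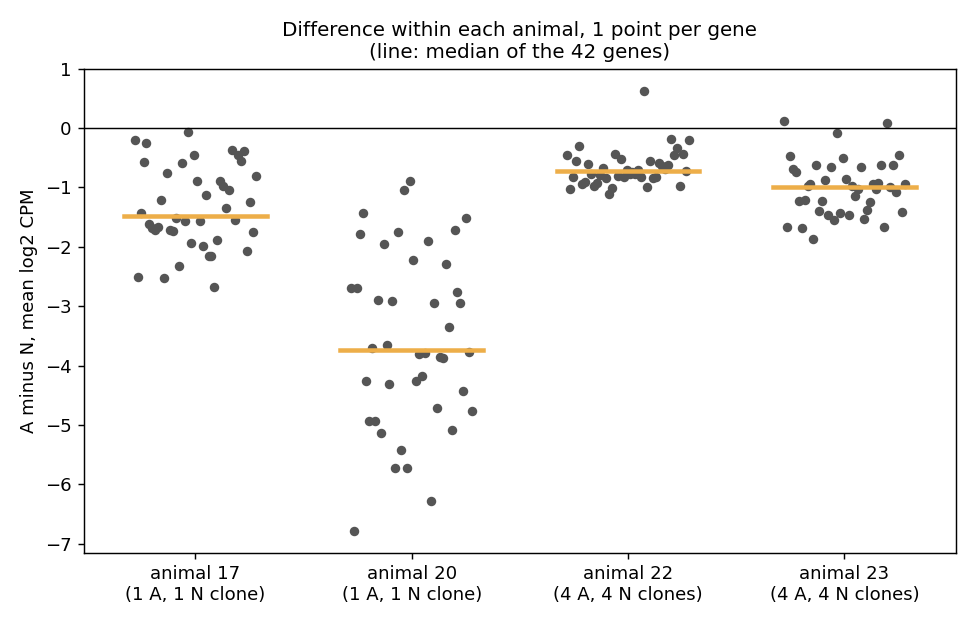
Difference between the mean log2 CPM of A and N clones (y axis) within each of the 4 animals (x axis), with 1 point per gene and a line at the median of the 42 genes. The medians are -1.47, -3.75, -0.73 and -0.99, and the 3 points above 0 are MAD2L1 in animal 22 and ANLN and RACGAP1 in animal 23.

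Animals 22 and 23, with 4 clones of each type, allowed the interaction of clone type with animal to be tested. For the interaction, edgeR's quasi-likelihood test gave 0 of the 42 genes at an adjusted and 0 at an unadjusted p under 0.05. DESeq2's Wald test also called 0. Of the 12915 genes tested, edgeR called 0.031% and DESeq2 called 116, so 0 of 42 does not set these genes apart. MAD2L1 had the smallest p, with an interaction (animal 23 minus animal 22) of -1.16 (SE 0.678, adjusted p = 0.645). The SE of the interaction was as high as 1.05 on the log2 scale, for CDC20. This SE alone is more than 2-fold, so differences between the animals well above 2-fold could have been missed for such genes. Levels in animal 23 and animal 22, with the condition as a covariate, also differed for 0 genes (0 at an unadjusted p under 0.05, and 0 by DESeq2). For this term edgeR called 0.108% of all genes tested and DESeq2 called 425 of 12915. Taken alone, the clones of animal 22 gave 0 called genes of the 42, with 11 at an unadjusted p under 0.05, and those of animal 23 gave 0 and 4, in edgeR's test of A against N clones. Of all genes tested, 0.331% were called lower in A clones in animal 22 alone and 2.09% in animal 23 alone.

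Genes that work beside the 42 were examined in lists of related genes outside them. Their counts are to be read against the 10.3% of all genes tested that were called lower in A clones and the 10.3% called higher. Of 18 cohesin and condensin genes, which hold and compact chromosomes, 11 (61.1%) fell and 0 rose, with a median log2 fold change of -0.64 over the list. SMC3 and STAG2, subunits of cohesin, fell by 0.64 and 0.56 on the log2 scale (SE 0.0847 and 0.113, adjusted p = 0.000431 and 0.00393 in the quasi-likelihood test), and RAD21, the cohesin ring subunit cut at anaphase, by 0.58 (SE 0.148, adjusted p = 0.0131). SMC3 was at 62.1, 80.2 and 92.5 CPM in N clones and at 42.6, 48.1 and 61.4 CPM in A clones, with no overlap between the groups.

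Of 31 other motors and spindle assembly genes 9 (29%) fell, among them NEDD1, KIFC1 and HMMR, at -0.56, -1.15 and -1.18 (adjusted p = 0.0114, 0.017 and 0.0211). NEDD1 brings the microtubule nucleator to the spindle, KIFC1 is a motor that clusters the spindle poles, and HMMR is a hyaluronan receptor that also binds the spindle. Of 31 other kinetochore genes 6 (19.4%) fell, with the smallest adjusted p for SKA2, CENPC and KNL1, at -0.71, -0.37 and -1.44 (adjusted p = 0.00386, 0.0178 and 0.0242). In 7 other cytokinesis genes 3 (42.9%) fell, DIAPH3, CIT and CEP55, at -0.73, -1.29 and -0.83 (adjusted p = 0.0142, 0.0167 and 0.0327). Of 20 other mitotic kinases and cyclins 2 were called lower, a share of 10% that is at the background, NEK6 and MELK, at -1.14 and -0.64 (adjusted p = 0.0202 and 0.0262). In the list of 21 checkpoint and APC/C genes 1 was called lower, a share of 4.76% that is under the background, the APC/C subunit CDC27, by 0.17 (adjusted p = 0.0256), and the median of the list was -0.14. No gene of these lists rose in this fit.

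Of 22 cell cycle transcription regulators 4 (18.2%) were called lower and 2 (9.09%) higher, the latter a share near the background, and the median of the list was -0.13. The lower genes with the smallest adjusted p were TFDP1, the partner of the E2F factors, and RBL2, which encodes the pocket protein p130, at -0.35 and -0.34 (adjusted p = 0.0139 and 0.0177). NFYB, a subunit of the factor that binds CCAAT boxes, was higher by 0.68 (SE 0.195, adjusted p = 0.0232), and the other higher gene, named after its values were seen, was LIN54. Of 45 DNA replication genes 16 (35.6%) fell, led by POLA1 at -0.69 (adjusted p = 0.00469), and 1 (2.22%) rose, CCNE1, which encodes cyclin E1, at 0.51 (adjusted p = 0.0114).

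The calls in these lists shared the dependence on clones. Clone 20-106 was left out first, a choice made after seeing the data. The genes called lower were then 9 of 18 of cohesin and condensin, 6 of 31 other motor and spindle genes and 3 of 31 other kinetochore genes. They were also 6 of 45 DNA replication genes, 2 other cytokinesis genes, 3 transcription regulators, 1 other kinase or cyclin and 1 checkpoint and APC/C gene. Called higher were 1 motor or spindle gene, 1 transcription regulator and 1 DNA replication gene. Of all genes tested, 9.3% were called lower in the fit without 20-106. Without clones 22-5 and 22-9, likewise chosen after seeing the data, the genes called lower were 3 of cohesin and condensin, 1 other motor or spindle gene, 2 other kinetochore genes, 1 other cytokinesis gene, 1 other kinase or cyclin, 0 checkpoint and APC/C genes, 2 transcription regulators and 3 DNA replication genes. In that fit 5.91% of all genes tested were called lower. SMC3, STAG2 and RAD21 were the cohesin and condensin genes still called, at -0.60, -0.52 and -0.36 (adjusted p = 0.00181, 0.0143 and 0.0399 in the quasi-likelihood test). The summed level of the 6 mesothelial genes ranged from 7.27 to 976 CPM in A clones and from 8.82 to 8500 CPM in N clones. MSLN was the only 1 of the 6 called, lower in A clones by 1.97 on the log2 scale (adjusted p = 0.0393), and KRT8, KRT18, KRT19 and WT1 were at 0 in some clones of both groups. The 2 clones highest in these genes, 22-5 and 22-9, were among the 3 highest in the mitosis and spindle genes, and with both left out all 42 fold changes were still negative. The part of the mesothelial genes' source in the difference was not tested.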

How the data were processed

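RNA of 20 MSC clones was sequenced by the authors, who trimmed reads with Trimmomatic 0.36, mapped them with STAR 2.5.2b to the bovine genome (ARS-UCD1.2) and counted unique reads within exons with featureCounts of Subread 1.5.2. The table the authors deposited holds raw counts, 1 column a clone, with no normalization. The library kit keeps strand, but the strand setting of the counting is not given in the sources used here. In the RefSeq table of ARS-UCD2.0, 16 of the 42 genes overlap another gene, and their counts are less certain. They are CDK1, CCNA2, CCNB2, BUB1B, TTK, PLK1, INCENP, CENPF, SPC25, KIF4A, KIF20A, KIF23, NUSAP1, PRC1, ANLN and FOXM1. Columns from other samples numbered 0. An unnamed row, at 0.113% to 0.333% of a clone's counts, was left out.

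Clone types were compared in R 4.3.3 by edgeR 4.0.16 (TMM, filterByExpr by clone type, robust quasi-likelihood F test), with animal as a block because the study paired A and N clones by animal. The study's DESeq2 was kept as an alternative. As a check of the pairing, the mean deviations of A clones and of N clones within an animal were correlated over genes, giving 0.253 for animal 17, 0.193 for animal 20, 0.241 for animal 22 and 0.44 for animal 23. For log2 CPM a prior count of 2 was added. The alternatives were no block, DESeq2 size factors, upper-quartile scaling, other filters, DESeq2 1.42.0, limma-voom 3.58.1 with animal as a random effect, no robust dispersion, summed counts, single animals, and leaving out each animal or clone. Before use, the tests were run on simulated counts.

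The genes, their roles and the related lists were chosen with earlier results of these data known. All 42 genes are named. Full levels are given for the 12 with the smallest p, for MKI67, TOP2A, CCNB1, CDK1, AURKB, PLK1, CDC20, BUB1B, FOXM1 and MAD2L1, and for the 3 with the largest adjusted p. At most 3 called genes a list, those of smallest adjusted p, are named, beside genes said to be picked out after their values were seen. Promoter sequences were not analysed here. Limits for a count of 0 cover counting error only, and p-values measure the spread between clones.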

Additional observations from a re-analysis of the deposited data

Results flagged for a closer look

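Clones far from the rest of their group were sought gene by gene with Dixon's ratio, which sets the distance from the outermost clone to the next against the spread from lowest to highest on the log2 scale, with a critical value of 0.466 for 10 clones. Of 86 groups examined, 19 exceeded it, where chance would give 4.3. The groups share clones and vary together, so they are not independent. In each of the 19 the clone was the lowest of its group.

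A clone 20-106 was the clone in 16 of them. The ratio was 0.589 for RACGAP1, with 25.1 CPM in this clone and 52.5 to 87.7 CPM in the remaining A clones. It was 0.542 for ANLN, 0.538 for PTTG1, 0.534 for PRC1, 0.529 for ASPM, 0.518 for KIF23 and 0.515 for DLGAP5. Values nearer the critical one were 0.507 for FOXM1, 0.497 for AURKB, 0.496 for CCNB1, 0.495 for MKI67, 0.491 for both CENPF and NUF2, 0.482 for CDK1, 0.476 for UBE2C and 0.468 for KIF2C. For MKI67 the clone held 21 counts, or 1.03 CPM, and the remaining A clones 10.2 to 98.2 CPM. With the clone left out, MKI67 was still called lower in A clones. In that fit 14 of the 42 genes were called lower in place of 27, beside 9.3% of all genes tested.

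N clone 22-18 was the clone in the other 3. The ratio was 0.494 for CDK1, with 13.9 CPM in this clone and 31.5 to 72.8 CPM in the remaining N clones, 0.489 for PTTG1 and 0.481 for TTK. Without clone 22-18, 32 of the 42 genes were called lower, beside 11.9% of all genes tested.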

How the results depend on the processing

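The sign was negative for every gene tested in 34 of 36 alternatives. The exceptions were animals 22 and 23 fitted alone, where MAD2L1 was at 0.542 in animal 22, and ANLN at 0.116 and RACGAP1 at 0.0894 in animal 23. The number of the 42 genes called lower, 27, was 18 with no replicate block (animals not paired), 22 with no filter, 24 with upper-quartile scaling, 27 with DESeq2 size factors or without robust dispersion, 30 with limma-voom and 35 with DESeq2. With at least 10 counts in every clone it was 23 of 37 tested. Over all genes tested, the share called lower was 4.89% with no filter, 13.1% with DESeq2 and 8.83% to 10.6% in the other fits just listed. With counts summed per animal and condition 0 of the 42 were called, with 26 at an unadjusted p under 0.05. In that fit 0 of all 14669 genes tested were called. The number of the 42 genes called was 0 in animal 22 alone (11 unadjusted) and 0 in animal 23 alone (4). Of all genes tested, 0.331% were called lower in animal 22 alone and 2.09% in animal 23 alone. Without animal 17 the number was 13, without animal 20 14, without animal 22 2 (30 unadjusted) and without animal 23 0 (37). Over all genes tested, the shares called lower in these fits were 8.63%, 9.33%, 4.99% and 0.0842%, in that order. Without 1 clone the number of the 42 called ranged from 9 to 38, with 10, 13, 14, 16 and 17 in between for the clones named above. Without both 22-5 and 22-9 it was 2 (24 unadjusted), where 5.91% of all genes tested were called lower. The unadjusted counts are given without the share over all genes tested, so they have no background here. Leaving out a clone of animal 17 or 20 also takes the other clone of that animal out of the comparison. Smaller sets of clones give fewer degrees of freedom, and neither this nor any other cause of these changes was tested. The interaction and animal tests called 0 of the 42 genes in every alternative run.

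In the lists of related genes, DESeq2 called lower 15 of 31 other kinetochore genes and 16 of 31 other motor and spindle genes. It also called lower 12 of 18 cohesin and condensin, 5 of 7 other cytokinesis and 22 of 45 DNA replication genes. Called lower too were 6 of 20 other kinases and cyclins, 5 of 22 transcription regulators and 2 of 21 checkpoint and APC/C genes. Called higher were 2 transcription regulators and 1 DNA replication gene. Of all genes tested, DESeq2 called 13.1% lower. Without clone 20-106 there were 3 other kinetochore genes, 1 kinase or cyclin and 7 DNA replication genes in either direction. In that fit 2455 of all 12997 genes tested were called. Without 22-5 and 22-9 there were, in either direction, 2 other kinetochore, 0 checkpoint and APC/C and 1 other motor and spindle gene. There were also 3 cohesin and condensin, 1 other cytokinesis, 2 regulator and 4 DNA replication genes, beside 1859 of all 13114 genes tested. Of the other kinases and cyclins, 1 was called lower and 1 higher. Without the block 2 transcription regulators were called in either direction, beside 2168 of all 12900 genes tested. Depth limits FOXM1, PTTG1, NEK2 and ASPM most, which had 0 to 4 counts in clone 20-106.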

Other observations

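Genes of the G1 phase decide whether a cell starts a new cycle. Of 13 G1 cyclins, kinases and inhibitors, 12 were tested, of which 1 (8.33%) was called lower and 2 (16.7%) were called higher in A clones, beside 10.3% of all genes in each direction, and the difference of this list from the mitosis and spindle genes was not tested. CCND2 (cyclin D2) and CDK6 were higher by 1.28 and 0.65 on the log2 scale (SE 0.326 and 0.215, adjusted p = 0.013 and 0.0405 in edgeR's quasi-likelihood test). CCND2 was at 11.1, 24.8 and 65.1 CPM in N clones and at 39.9, 56.6 and 121 CPM in A clones, given as lowest, median and highest. CDKN2D, an inhibitor of the cyclin D kinases, was lower by 0.68 (SE 0.199, adjusted p = 0.0251). The median log2 fold change of the list was 0.1. CDK6 was no longer called without A clone 20-106 (0.48, adjusted p = 0.0675) or without N clones 22-5 and 22-9 (0.70, adjusted p = 0.0543), 2 alternatives chosen after seeing the data.

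A clone 20-106, the lowest in the mitosis and spindle genes, held the highest level of 4 of these genes and the lowest of 3. CDKN1A, which encodes the CDK inhibitor p21, was at 519 CPM there, with 91.7 to 366 CPM over the remaining A clones and 116 to 372 CPM in N clones. CDKN2A was at 196 CPM, against at most 132 and 121 CPM. CCND1 was at 592 CPM, against at most 376 and 374 CPM, and CDK6 at 584 CPM, against at most 381 and 225 CPM. CDK2 was at 3.82 CPM, below the 4.43 to 14.7 CPM of the other A clones, CDK4 at 31.8 CPM, below their 45.4 to 91.9 CPM, and CDKN2C at 4.12 CPM, below their 5.64 to 21.5 CPM. CDKN2B was at 36.2 CPM, where the median of the other A clones was 95.1 CPM. N clone 22-18, the lowest N clone, had the lowest CDKN1A of its group, at 116 CPM, and the highest CDKN2A, at 121 CPM. Like 20-106 among the A clones, it was the lowest N clone for CDK2, CDK4 and CDKN2C, at 5.57, 45.9 and 6.75 CPM. It was also the lowest N clone for CDKN1B and CDKN2D, and the highest for CCND2 and CCND3. These genes were picked out after their values were seen, and 1 clone allows no test.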
